A study of Mus musculus with 4 samples.

Results

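Cyclic AMP phosphodiesterases are the enzymes that break cyclic AMP down to AMP. The genes described here are 10 of the 55401 genes of a count table from mouse bone marrow-derived macrophages, namely Pde1b, Pde2a, Pde3b, Pde4a, Pde4b, Pde4d, Pde7a, Pde7b, Pde8a and Pde10a. They were taken by name, as phosphodiesterase genes whose products can hydrolyse cyclic AMP, and all 10 had enough counts to be tested. Marrow cells from C57BL/6J mice were infected with CRISPR-Cas9 lentivirus (MOI 30) on day 1 and differentiated for 5 days. In 2 libraries (knockout) the virus was directed at Adcy7, an adenylyl cyclase gene, and in the other 2 (control) at Rosa, a common neutral site. Both groups were thus given virus with Cas9, no uninfected cells were sequenced here, and all 4 libraries carried batch number 1. The sequenced cells were bulk cultures of infected marrow cells. Whether the replicates were separate mice or separate cultures is not stated, so the p-values reflect only how far these samples spread, and that spread may be technical.

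Adenylyl cyclases make cyclic AMP and phosphodiesterases remove it, so the balance of both sets how strongly protein kinase A, Epac and the transcription factor CREB are driven. The products of Pde4, Pde7 and Pde8 genes act on cyclic AMP alone. The products of Pde1b, Pde2a, Pde3b and Pde10a also act on cyclic GMP, and each answers to another signal, such as calcium with calmodulin for Pde1b or cyclic GMP for Pde2a and Pde3b. In macrophages, PDE4 enzymes, above all that of Pde4b, are known for restraining the damping effect of cyclic AMP on inflammatory cytokine release.

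Totals were 61782358 to 71914179 counts a library, and levels are given as CPM, which is each count scaled to the total of its library. Adcy7 itself was at 59.4 and 58.8 CPM in knockout replicates 1 and 2 and at 122 and 125 CPM in control replicates 1 and 2, or 48.4% of control (log2 fold change -1.05, SE 0.09, adjusted p = 4.6e-06 by the quasi-likelihood test of edgeR with the Benjamini-Hochberg method, as for every adjusted p given here unless DESeq2 is named). The mRNA was thus lower but present, and mRNA does not show how many gene copies were edited. Gt(ROSA)26Sor, the transcript at the Rosa locus, was at 3.11 and 4.14 CPM against 3.52 to 4.32 CPM and did not pass (adjusted p = 0.743). Of the 15832 genes tested, 49.6% passed the threshold of 0.05, 25.0% as higher and 24.6% as lower in the knockout libraries. The groups did not overlap for 75.2% of tested genes.

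Of the 10 phosphodiesterase genes, 5 rose (Pde10a, Pde4d, Pde4b, Pde2a and Pde8a), 3 fell (Pde4a, Pde7b and Pde7a) and 2 did not pass (Pde1b and Pde3b). The 8 that passed stand beside a background in which 49.6% of all tested genes passed. The groups did not overlap for 9 of the 10 genes, 5 with the knockout above and 4 with it below, beside 75.2% of all tested genes (37.4% above and 37.8% below). The median log2 fold change was -0.005 over the 10 genes and 0.015 over all tested genes, and the median size regardless of sign was 0.72 against 0.53. By that size Pde10a lay at percentile 93.3 of all tested genes, Pde4d at 91.7 and Pde4b at 77.3, while Pde8a lay at 31.9. In bulk samples like these, fewer cells of a type and less RNA per cell cannot be told apart. Counts were per gene, so the long and short isoforms that each Pde4 gene makes were summed.

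**Figure D1:**
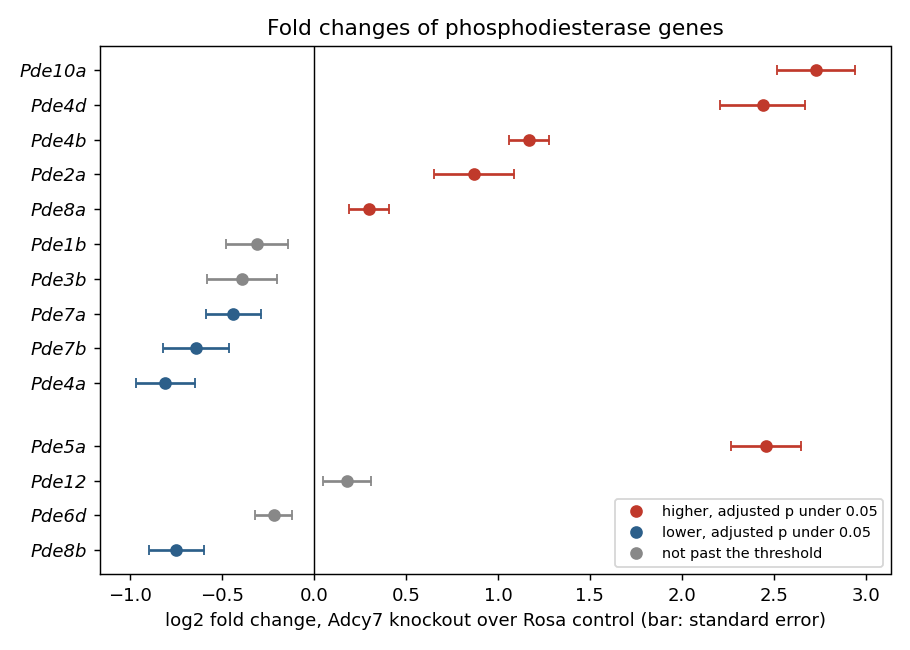
Log2 fold change, knockout over control, of the 10 cyclic AMP phosphodiesterase genes, with bars of 1 SE and 2 libraries a group. Other tested phosphodiesterase genes are drawn where their mean was at least 1 CPM in both groups, which leaves out Pde1c, Pde3a and Pde6b. Pde10a at 2.73 and Pde4d at 2.44 are the highest of the 10 genes, and Pde4a at -0.81 is the lowest.

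The start sites of these genes are shown as sequence because the Pde4 genes moved in different directions and CREB is the best known nuclear reader of cyclic AMP. RefSeq promoter windows (GRCm38.p6) were at hand for 8 of the 10 genes, with 20 starts, and none for Pde3b and Pde7a. The 250 bases before each start were searched on both strands for the full CRE (TGACGTCA), the CRE half-site (TGACG, which the full CRE also holds), AP-1 (TGANTCA) and the NF-kB motif. The full CRE was in 0 of the 20 windows, against 1.55% of all 32851 windows, and AP-1 was in 0, against 6.75%. The half-site was in 3 windows, against 17.8% of all, and the NF-kB motif in 3, against 7.25%. The half-site lay 34 bases before Pde4b start 1, 50 before Pde4a start 2 and 84 before the start of Pde8a. The NF-kB motif lay 128 bases before Pde4b start 2, 59 before Pde4b start 3 and 149 before Pde1b start 3. The bases just after Pde4b start 2 and after the Pde8a start were not found in the annotated transcripts of these genes. Which starts these cells used was not measured. The 150 bases before 5 of these starts follow, with the half-site or the NF-kB motif in capitals.
Pde4b start 1, chr4:102421405-102421554, plus strand: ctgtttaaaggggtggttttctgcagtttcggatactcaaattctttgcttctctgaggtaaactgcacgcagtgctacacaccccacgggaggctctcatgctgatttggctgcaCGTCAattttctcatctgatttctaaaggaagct
Pde4b start 2, chr4:102569910-102570059, plus strand: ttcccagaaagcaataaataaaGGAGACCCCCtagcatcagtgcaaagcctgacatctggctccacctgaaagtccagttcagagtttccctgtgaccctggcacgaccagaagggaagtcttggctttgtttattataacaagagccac
Pde4b start 3, chr4:102587408-102587557, plus strand: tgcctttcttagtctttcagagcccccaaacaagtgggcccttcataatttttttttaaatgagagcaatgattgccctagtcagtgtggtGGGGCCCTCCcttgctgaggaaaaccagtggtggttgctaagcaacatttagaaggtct
Pde4a start 2, chr9:21183951-21184100, plus strand: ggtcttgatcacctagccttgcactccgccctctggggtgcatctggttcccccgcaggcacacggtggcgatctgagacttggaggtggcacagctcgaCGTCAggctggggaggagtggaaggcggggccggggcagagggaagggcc
Pde8a start 1, chr7:81213115-81213264, plus strand: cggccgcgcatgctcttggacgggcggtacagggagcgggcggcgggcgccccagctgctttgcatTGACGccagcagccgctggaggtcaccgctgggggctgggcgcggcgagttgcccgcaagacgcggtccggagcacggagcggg
The half-site, read as CGTCA on the printed strand at both Pde4 starts, was thus found beside a gene that rose (Pde4b), a gene that fell (Pde4a) and the gene with the smallest rise (Pde8a). Both windows of Pde10a and the single window of Pde4d, the genes with the largest fold changes of the 10, held none of the searched letters. The windows of Pde2a, which rose, and of Pde7b, which fell, held none either. A match is a description and not a site or a cause, and a missing match says only that these letters are not in the window.

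Among the cyclic AMP-specific PDE4 enzymes, which are the targets of the anti-inflammatory PDE4 inhibitors, Pde4b and Pde4d rose while Pde4a fell. Pde4b (ENSMUSG00000028525, chromosome 4), the PDE4 gene most tied to the response of macrophages to endotoxin, was at 54.0 and 58.2 CPM in the knockout libraries and at 23.7 and 26.5 CPM in the control libraries. Both knockout libraries lay above both control libraries. The fold change was 2.25 (log2 fold change 1.17, SE 0.11, adjusted p = 7.29e-06). Pde4d (ENSMUSG00000021699, chromosome 13), whose product is held at receptors and scaffolds by anchoring proteins, was at 7.31 and 8.85 CPM against 1.43 and 1.56 CPM. The groups were far apart compared with the gap within each, at a fold change of 5.43 (log2 fold change 2.44, SE 0.23, adjusted p = 7.02e-06). Pde4a (ENSMUSG00000032177, chromosome 9), the remaining widely expressed member of the family, moved the other way, from 12.5 and 11.2 CPM in the control libraries to 6.01 and 7.43 CPM in the knockout libraries. This was 57.0% of control (log2 fold change -0.81, SE 0.16, adjusted p = 0.00177). Pde4c, a PDE4 gene that is not among the 10, had 8 counts in knockout replicate 2 and 0 in each of the other libraries, and was not tested.

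Levels can be compared between genes only per length, here as CPM per kilobase of all annotated exons of a gene. On that scale Pde4b stood to Pde4a at a ratio of 6.52 and 5.68 in the knockout against 1.37 and 1.72 in the control. Pde4d stood to Pde4a at 0.776 and 0.76 against 0.0726 and 0.0888. On that scale Pde4d was thus a small fraction of Pde4a in the control libraries and closer to Pde4a, though still below it, in the knockout libraries. Per kilobase of coding sequence the order in the knockout libraries turned around. Pde4d then held 3.67% and 4.24% of the summed level of the 10 genes there, and Pde4a 2.87% and 3.38%. The ratio of Pde4b to Pde4d was 8.39 and 7.48 against 18.9 and 19.3, so Pde4b stayed the most abundant PDE4 message in each of the 4 libraries.

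**Figure D2:**
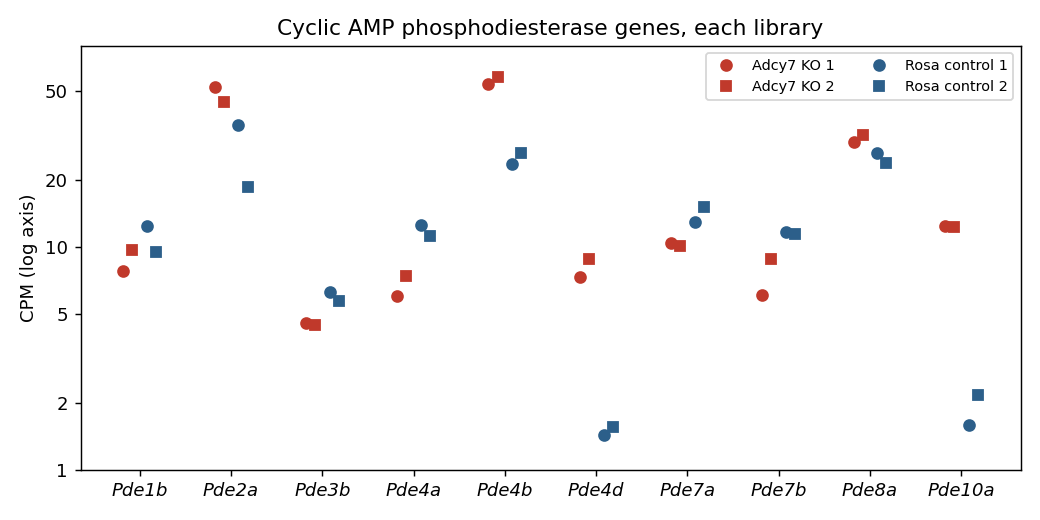
CPM of each of the 10 genes in the 2 knockout and 2 control libraries, 1 point a library, on a log axis. The groups are farthest apart for Pde10a, at 12.4 and 12.3 against 1.58 and 2.16 CPM, and overlap only for Pde1b.

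Of the enzymes that act on both cyclic nucleotides, Pde10a and Pde2a rose, and Pde1b and Pde3b did not pass. Pde10a (ENSMUSG00000023868, chromosome 17), best known from the striatum of the brain, was at 12.4 and 12.3 CPM in the knockout libraries and at 1.58 and 2.16 CPM in the control libraries. It had the smallest adjusted p of the 10 genes, 1.21e-06, at a fold change of 6.64 (log2 fold change 2.73, SE 0.21). Pde1b (ENSMUSG00000022489, chromosome 15), which calcium and calmodulin activate, was at 7.81 and 9.65 CPM against 12.4 and 9.49 CPM. Its groups overlapped, and the log2 fold change of -0.31 (SE 0.17) did not pass (adjusted p = 0.161). Pde3b (ENSMUSG00000030671, chromosome 7), which cyclic GMP inhibits and Akt signalling activates, was at 4.57 and 4.47 CPM against 6.29 and 5.71 CPM. Both of its knockout libraries lay below both control libraries, yet the log2 fold change of -0.39 (SE 0.19) did not pass (adjusted p = 0.107).

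Pde2a (ENSMUSG00000110195, chromosome 7), which cyclic GMP activates, was at 52.4 and 44.6 CPM in the knockout libraries and at 35.4 and 18.6 CPM in the control libraries. The groups did not overlap, but the control libraries differed from each other more than the knockout libraries did. The fold change was 1.83 (log2 fold change 0.87, SE 0.22, adjusted p = 0.0073), and the log2 fold change was 0.48 without control replicate 2 and 1.38 without control replicate 1. The call was lost with DESeq2 (adjusted p = 0.126), with no filter on low counts (adjusted p = 0.0968) and with a robust dispersion (adjusted p = 0.122). A second gene record on the same strand, Gm45837 (ENSMUSG00000030653), shares 3955 of its 4139 exon bases, or 95.6%, with Pde2a. Gm45837 was at 14.6 and 22.4 CPM against 18.4 and 32.4 CPM, so in each group the library with less Pde2a had more Gm45837. The share of their summed counts that went to Pde2a was 78.2% and 66.6% in the knockout libraries, against 65.7% and 36.4% in the controls. Summed, the records were at 67.0 and 66.9 CPM against 53.8 and 51.0 CPM, which is 67.0 CPM ± 0.017 against 52.4 CPM ± 2.0 (SD, n = 2 each). The summed fold change was 1.29 (log2 fold change 0.37, SE 0.10, adjusted p = 0.00814), smaller than for Pde2a alone and with replicates closer together. How the reads of the shared exons were divided is not given in the sources used here, so the value of Pde2a alone is uncertain.

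**Figure D3:**
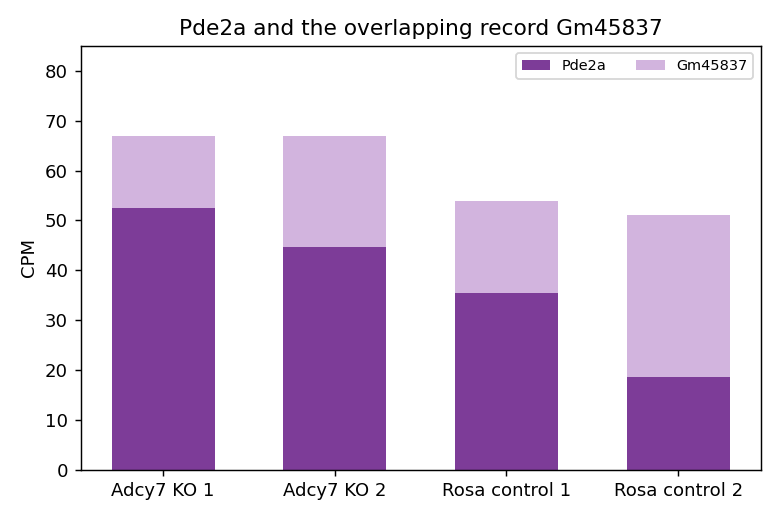
CPM counted to Pde2a and to the overlapping record Gm45837, stacked, in each of the 4 libraries. The stacks reach 67.0 and 66.9 CPM in the knockout libraries and 53.8 and 51.0 CPM in the control libraries, while the Pde2a portion alone runs from 18.6 to 52.4 CPM.

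Among the high-affinity, cyclic AMP-specific enzymes, Pde7a and Pde7b fell and Pde8a rose, each with a call that some alternatives lost. Pde7a (ENSMUSG00000069094, chromosome 3), known from T cells, was at 10.4 and 10.1 CPM in the knockout libraries and at 12.9 and 15.2 CPM in the control libraries. That was 73.7% of control (log2 fold change -0.44, SE 0.15, adjusted p = 0.03). Its call was lost without knockout replicate 2 (adjusted p = 0.0711), without control replicate 2 (log2 fold change -0.30, adjusted p = 0.291), with DESeq2 (adjusted p = 0.0667) and with no filter (adjusted p = 0.0695). Pde7b (ENSMUSG00000019990, chromosome 10), its close relative, was at 6.08 and 8.79 CPM against 11.7 and 11.4 CPM, with the knockout libraries lower and less alike than the control libraries. That was 64.3% of control (log2 fold change -0.64, SE 0.18, adjusted p = 0.0127), and the call was lost without knockout replicate 1 (log2 fold change -0.40, adjusted p = 0.0686) and with no filter (adjusted p = 0.059). Pde8a (ENSMUSG00000025584, chromosome 7), whose enzyme has a very high affinity for cyclic AMP, was at 29.5 and 31.9 CPM against 26.4 and 23.8 CPM. Its rise was the smallest of the 5, at a fold change of 1.23 (log2 fold change 0.30, SE 0.11, adjusted p = 0.0427). The Pde8a call was lost without knockout replicate 2 (adjusted p = 0.065), without control replicate 1 (adjusted p = 0.136), without control replicate 2 (adjusted p = 0.33), with DESeq2 (adjusted p = 0.0684), with no TMM scaling (adjusted p = 0.062) and with no filter (adjusted p = 0.0813).

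**Figure D4:**
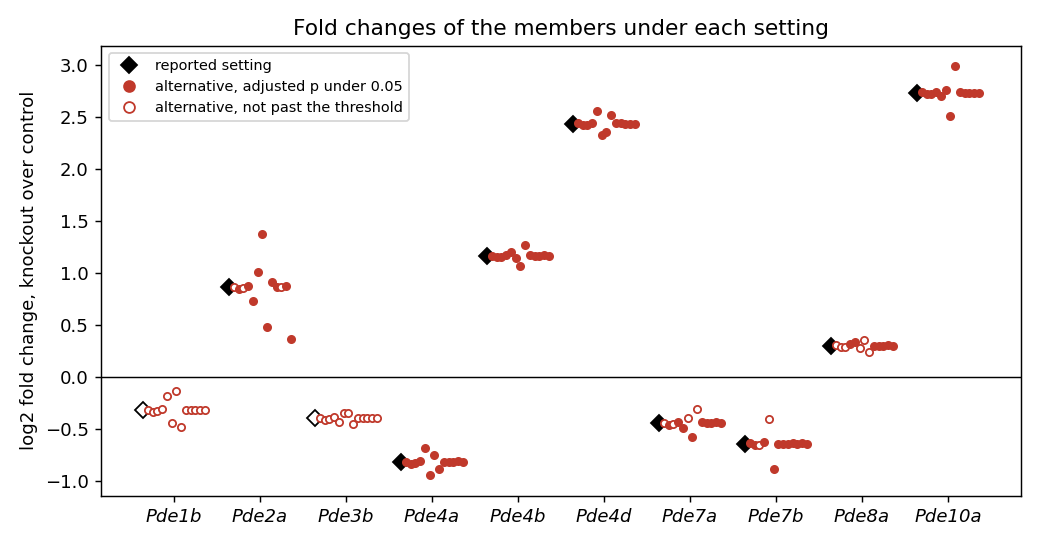
Log2 fold change of each of the 10 genes as reported and under each of 13 alternatives, with calls that were lost marked. The values of Pde10a stay between 2.51 and 2.99, those of Pde4d between 2.33 and 2.56, those of Pde4b between 1.07 and 1.27 and those of Pde4a between -0.94 and -0.68, each past the threshold in every alternative.

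Set in order by mean CPM per kilobase of exons, Pde2a, Pde8a and Pde4b led among the 10 genes in both groups. Pde8b, also cyclic AMP-specific, is not among the 10 and was not placed. Its control mean was 16.6 CPM over 5879 exon bases, beside 25.1 CPM over 10560 exon bases for Pde4b. In the knockout libraries Pde2a was at 7.89 ± 0.896, Pde8a at 7.58 ± 0.418 and Pde4b at 5.31 ± 0.283 (SD, n = 2 each). Pde2a and Pde8a could not be put in order there, since their libraries overlapped. Below Pde4b came Pde1b at 1.62 ± 0.24 and Pde7a at 1.32 ± 0.03, then Pde10a and Pde4a, which overlapped, and Pde4d, Pde7b and Pde3b, each of which overlapped its neighbour. In the control libraries Pde8a was first at 6.2 ± 0.464, followed by Pde2a at 4.39 ± 1.93 and Pde4b at 2.38 ± 0.187. Pde4b, Pde1b and Pde7a overlapped their neighbours there, followed by Pde4a, Pde7b and Pde3b with no overlap. Pde10a at 0.146 ± 0.0319 and Pde4d at 0.124 ± 0.00769 came last and overlapped. Pde10a moved from rank 9 in the control group to rank 6 in the knockout group, and Pde4d from rank 10 to rank 8. The place of Pde2a rests on how its counts were split. Summed with Gm45837, over the 6333 exon bases of both records, it was at 10.6 in the knockout and 8.28 in the control, above Pde8a in both groups. Per kilobase of coding sequence instead, with Pde2a alone, Pde4b ranked 1 by its mean in both groups. In control replicate 1, however, Pde2a lay above Pde4b, at 18.8% of the summed level against 16.1%.

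The summed level of the 10 genes was 27.1 and 27.6 CPM per kilobase in the knockout libraries, against 22.0 and 18.4 in the controls, or 1.35-fold more (27.3 ± 0.381 against 20.2 ± 2.53, SD, n = 2 each). A 2-sided exact permutation test of 2 against 2 libraries cannot give a p below 0.333, so the summed level was not tested. The 3 PDE4 genes held 24.0% and 26.2% of the sum in the knockout libraries, against 18.2% and 22.3% in the controls. Pde10a held 3.56% and 3.48% against 0.559% and 0.912%, so even after its rise it was a small part of the sum. Pde8a held 26.9% and 28.5% against 29.7% and 31.9%, a lower share in the knockout libraries at a higher level. With Pde2a replaced by its sum with Gm45837 the total was 1.24-fold higher in the knockout libraries. Pde8b, a cyclic AMP-specific gene outside the 10 that fell to 59.4% of control, is in none of these sums.

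**Figure D5:**
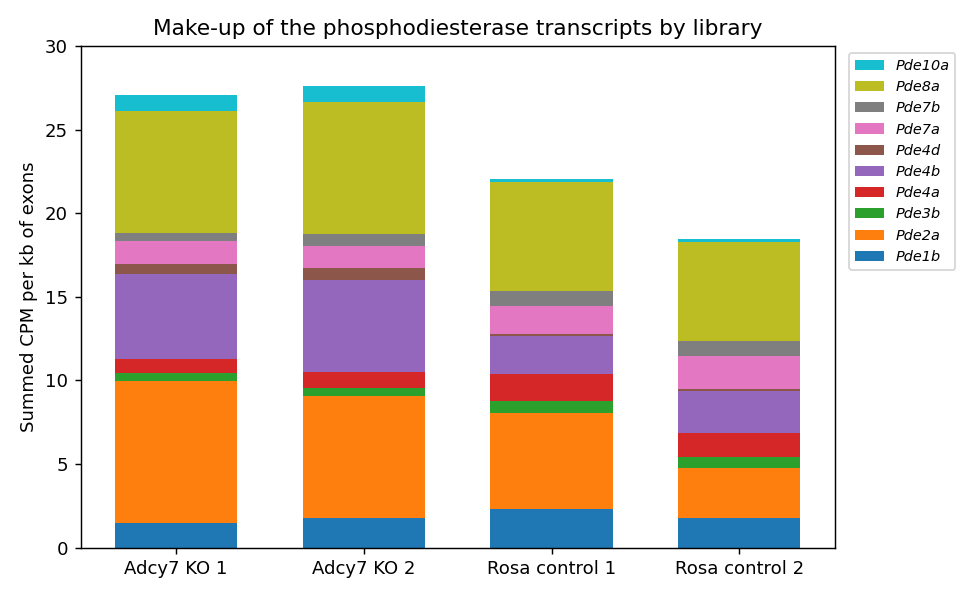
CPM per kilobase of exons of the 10 genes, stacked, in each of the 4 libraries. The stacks reach 27.1 and 27.6 in the knockout libraries, against 22.0 and 18.4 in the controls, with Pde2a, Pde8a and Pde4b making up most of each.

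Of the other 15 phosphodiesterase genes, 7 were tested, among which Pde5a rose and Pde8b fell well above the floor of the counts. No count was found in any library for 4 of the 15 (Pde1a, Pde6c, Pde9a and Pde11a). Of the 7 tested, 3 were called higher, 2 lower and 2 did not pass (median log2 fold change 0.18), beside 49.6% of all tested genes that passed. Pde3a, Pde1c and Pde6b are in that tally but reached the filter only through the group where they were higher. The filter thus largely set their direction. Pde5a, whose enzyme acts on cyclic GMP alone, was at 11.8 and 11.2 CPM in the knockout against 2.04 and 2.19 CPM in the control, a fold change of 5.5 (log2 fold change 2.46, SE 0.19, adjusted p = 1.65e-06). Its values thus resembled those of Pde10a, whose product acts on cyclic AMP as well as cyclic GMP. Pde8b, a cyclic AMP-specific relative of Pde8a, was at 9.78 and 9.76 CPM against 18.5 and 14.8 CPM, or 59.4% of control (log2 fold change -0.75, SE 0.15, adjusted p = 0.0017). The PDE8 genes therefore differed in direction, and per kilobase of exons Pde8a stood to Pde8b at 4.38 and 4.75 against 2.07 and 2.34. Pde6d, a carrier of prenylated proteins rather than a hydrolase of the cell's cyclic nucleotides, had a log2 fold change of -0.22 (SE 0.10, adjusted p = 0.0953), and Pde12, a mitochondrial RNA-processing enzyme, one of 0.18 (SE 0.13, adjusted p = 0.257).

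The remaining calls among these genes rest on few counts. If 1 sequenced fragment is worth 4 counts, which is an assumption, 12 counts pooled over a group stand for a floor of 3 fragments (0.0898 CPM for the knockout, 0.0885 CPM for the control). Pde3a, which acts on cyclic AMP like Pde3b, was at 0.779 and 0.194 CPM against 0 and 0.0572 CPM. On that reading it had 17 fragments against 1, a ratio of 17.2 (95% exact binomial interval 2.7 to 721, counting error only), and its adjusted p was 0.0134. That call was lost without knockout replicate 1, without control replicate 1 and with no filter. Pde1c was at 0 in both knockout libraries and at 0.167 and 0.372 CPM in the control libraries, at least 3.04-fold lower (adjusted p = 0.0131). Pde6b, a subunit of the photoreceptor enzyme, was at 0.389 and 0.178 CPM against 0 in both control libraries, at least 3.3-fold higher (adjusted p = 0.0107). The Pde1c call was lost when either knockout library was left out and the Pde6b call when either control library was, and both were lost with no filter. With a filter of 1 CPM or with counts divided by 4, none of Pde3a, Pde1c and Pde6b was tested. Pde1c was also not tested without control replicate 2, nor Pde6b without knockout replicate 1.

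Around the phosphodiesterases, the genes that make and sense cyclic AMP also differed in both directions. Of 24 genes of cyclic AMP synthesis and effectors 17 were tested, of which 5 rose, 7 fell and 5 did not pass (median log2 fold change -0.37). The number that rose was 3 when either control library was left out. Adcy8, among the 5 that rose, was at 0.167 and 0.259 CPM against 0 in both control libraries. It reached the filter only through the knockout group, which largely set its direction. As background for this list and the receptors below, 49.6% of all tested genes passed, 25.0% as higher and 24.6% as lower. Adcy6, another adenylyl cyclase, was at 3.21 and 3.38 CPM in the knockout libraries against 0.411 and 0.444 CPM, a fold change of 7.75 (adjusted p = 3.99e-05). Gnai2, an inhibitory G protein subunit, was at 741 and 747 CPM against 1310 and 1190 CPM (log2 fold change -0.73, SE 0.09, adjusted p = 5.92e-05). Of 11 receptors that signal through the stimulatory G protein 10 were tested, of which 3 rose, 4 fell and 3 did not pass (median log2 fold change 0.05). Both adenosine receptors of this list rose, Adora2a from 10.8 and 9.82 CPM to 73.5 and 67.1 CPM (6.9-fold, adjusted p = 1.85e-08) and Adora2b from 8.04 and 6.97 CPM to 25.6 and 26.6 CPM (3.51-fold, adjusted p = 1.07e-06).

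Of 24 genes of known partners and regulators of the phosphodiesterases 23 were tested, of which 6 rose, 8 fell and 9 did not pass (median log2 fold change -0.05). Of all tested genes 49.6% passed, 25.0% as higher and 24.6% as lower. Gucy1a1, among the 6 that rose, was at 0.306 and 0.712 CPM in the knockout libraries against 0 and 0.172 CPM. It reached the filter largely through the group where it was higher. Arrb2, a beta-arrestin that brings PDE4 enzymes to activated receptors, was at 143 and 140 CPM in the knockout libraries against 328 and 309 CPM (log2 fold change -1.15, SE 0.09, adjusted p = 1.54e-06). Nde1, a partner of PDE4 in complexes with Disc1, was at 17.7 and 17.6 CPM against 37.3 and 34.9 CPM (log2 fold change -1.02, SE 0.11, adjusted p = 2.31e-05). Gucy1b1, a subunit of the guanylyl cyclase that makes cyclic GMP, was at 3.02 and 3.61 CPM against 0.395 and 0.615 CPM, a fold change of 6.53 (adjusted p = 8.8e-05). Of the 23 tested genes, the number that fell was 5 without control replicate 1, 4 without control replicate 2 and 5 with no filter, and the number that rose was 2 without control replicate 1.

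Of 22 known CREB target genes 21 were tested, of which 9 rose, 7 fell and 5 did not pass (median log2 fold change 0.11), so the list did not move in 1 direction. Of all tested genes 49.6% passed, 25.0% as higher and 24.6% as lower. Ppargc1a, among the 9 that rose, was at 0 in both control libraries. It reached the filter only through the knockout group, which largely set its direction. Ptgs2, which makes prostaglandin precursors, was at 184 and 246 CPM in the knockout libraries against 5.55 and 5.08 CPM, a fold change of 40.8 (adjusted p = 1.64e-09). Fos, a subunit of AP-1, fell from 481 and 402 CPM to 43.1 and 40.7 CPM (log2 fold change -3.38, SE 0.11, adjusted p = 3.17e-09). Arg1, an arginine-degrading enzyme, fell from 2290 and 2550 CPM to 361 and 352 CPM (log2 fold change -2.75, SE 0.11, adjusted p = 7.62e-09). Many of these genes also answer to other signals.

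The genes whose values followed Pde10a most closely were sought among the 12071 tested genes with a mean of at least 1 CPM outside the lists. Likeness was the largest difference, over the 4 libraries, between log2(CPM + 1) values centred on each gene's mean. Lta, a cytokine gene, was closest at 0.05, with 11.6 and 11.1 CPM in the knockout libraries and 1.28 and 1.87 CPM in the control libraries. Iglc1, an immunoglobulin light chain segment, followed at 0.077 and Nrgn, a calmodulin-binding protein gene, at 0.103. With 4 libraries in 2 groups, such likeness means little more than a similar step between the groups.

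Markers of cell types moved with the groups as well. Their calls stand beside a background in which 49.6% of all tested genes passed, 25.0% as higher and 24.6% as lower. Of 10 macrophage markers 9 fell and Cd68 did not pass, and their summed level was 20200 to 20400 CPM in the knockout libraries against 56300 to 58000 CPM. Lyz2 alone made up 81.2% of that sum in the knockout and 89.7% in the control, and the other 9 summed to 3730 to 3890 against 5840 to 5920 CPM. Aif1, Mrc1, C1qa and Mertk were at 0 to 0.356 CPM in the knockout libraries, so part of the labelled cell type's defining markers were close to absent there. Monocyte markers numbered 1 higher and 4 lower of 5 (2060 to 2620 against 2870 to 3130 CPM). Without Chil3, the 1 that rose, their sum was 725 to 810 against 1970 CPM. Neutrophil markers numbered 0 higher and 4 lower of 8 (4480 to 5880 against 5150 to 6200 CPM). Eosinophil markers were higher for 5 of 6 tested of 7 (221 to 280 against 30.8 to 33.8 CPM, or 31.0 to 31.4 against 5.14 to 6.61 CPM without Prg2), with Ear6 and Il5ra at 0 in the control. Mast cell and basophil markers were higher for 6 of 6 tested of 8 (32.7 to 33.6 against 2.72 to 3.06 CPM), with Cma1 at 0 in every library and Fcer1a at 0 in the control. Platelet markers were higher for all 8 (313 to 352 against 184 to 200 CPM, or 124 to 144 against 29.8 to 31.4 CPM without Pf4). Dendritic cell markers were higher for 3 of 5 tested of 7 (43.9 to 44.0 against 3.92 to 4.03 CPM), with Siglech and Cd209a at 0 in the knockout. Ccr7 carried that sum, and the other 6 were at 2.86 in both knockout libraries against 1.25 to 1.86 CPM. Stromal markers were higher for 3 of 6 tested of 7 (44.1 to 50.4 against 2.13 to 3.04 CPM), with Lum at 0 in the control. Dcn carried most of that sum in the knockout, the other 6 were at 10.5 to 11.2 against 1.96 to 2.63 CPM, and the collagen genes Col1a1, Col1a2 and Col3a1 did not pass. Erythroid markers were higher for 3 of 4 tested of 6 (17.4 to 22.7 against 2.35 to 2.49 CPM), with Alas2 at 0 in the knockout. B cell markers were higher for 4 and lower for 2 of 6, with a summed level of 134 against 165 to 166 CPM, and of 37.4 to 39.8 against 27.0 to 28.0 CPM without Ighm. T and NK cell markers were lower for 1 of 3 tested of 8 (2.51 to 2.61 against 3.48 to 4.23 CPM, or 0.987 to 1.02 against 0.172 to 0.471 CPM without Nkg7), with Ncr1 at 0 in every library and Trac at 0 in the control. Ear1, Ear6, Pax5 and Lum, among the markers called higher, reached the filter only through the knockout group. Mrc1 and C1qa, called lower, reached it only through the control group. The filter thus largely set the direction of these markers. The part of the listed cell types in the values of the phosphodiesterase genes was not tested.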

How the data were processed

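Poly(A) RNA of 4 libraries was measured. The deposited table holds an estimated count for each Ensembl gene, in whole numbers. Per the submitters' processing notes, the authors used fastp, HISAT2, StringTie and edgeR with build GRCm39; versions, annotation release and the handling of overlapping genes are not stated in the sources used here. No strand-keeping method is named in the labels, so antisense genes cannot be told apart. Gene names and exon lengths came from a GRCm38 annotation, which named 55141 of 55401 IDs. No gene coordinates are given beyond the RefSeq promoter windows, since the builds differ. Low counts piled at multiples of 4 (30.54% to 32.17% of counts from 1 to 40 in each library, where 25% would fall with no step). Most low counts were not such multiples, so reading 1 fragment as 4 counts, on which floors, bounds and the Pde3a ratio rest, is an assumption.

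Groups came from the treatment label. Both knockout columns are named KO3 with a replicate number and were matched to titles by that number; the meaning of the 3 is not given. Counts were filtered with filterByExpr (minimum count 10), normalized by TMM and fitted in edgeR 4.0.16 (quasi-likelihood test, Benjamini-Hochberg adjusted over 15832 genes, 2 residual degrees of freedom, common dispersion 0.0238) in R 4.3.3. SE is the size of the log2 fold change divided by the square root of F. DESeq2 1.42.0, no TMM, no filter, a filter of 1 CPM, counts divided by 4, a replicate block and leaving out each library were alternatives. The older and the robust dispersion, coding length and the sum of Pde2a with Gm45837 were added after seeing the data.

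The phosphodiesterase genes, the lists and the tests were chosen with earlier results of these data known. Named genes are the 10 phosphodiesterases, the other tested ones, up to 3 genes a pathway list with the smallest adjusted p, Adcy7, Gt(ROSA)26Sor and the 3 most like Pde10a. Other genes were named after their values were seen. These are Gm45837, Pde4c, Adcy8, Gucy1a1, Ppargc1a and markers near 0, with much of a sum or with a direction set by the filter. Of the genes this rule took, 1 is not reported here. Floors and intervals describe counting error alone, because PCR copies could not be recognised without molecular identifiers.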

Additional observations from a re-analysis of the deposited data

How the results depend on the processing

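Pde10a, Pde4d, Pde4b and Pde4a kept their calls and directions in all 13 alternatives, and Pde1b and Pde3b passed in none of them. The number of the 10 genes that rose was 3 with DESeq2 and 3 with no filter on low counts, and the number that fell was 1 with no filter. Over all genes, 3590 rose with DESeq2, and 2972 rose and 3195 fell with no filter, of 23096 genes fitted in each. As reported, 3952 rose and 3896 fell of 15832. Among the other phosphodiesterases, the numbers higher and lower were 1 and 1 with no filter, with a filter of 1 CPM and with counts divided by 4, and ran from 1 to 3 and from 1 to 2 when 1 library was left out. Of the partners and regulators 5 fell with no filter, and leaving out 1 library gave 2 to 6 that rose and 4 to 7 that fell. For cyclic AMP synthesis and effectors, 3 to 5 rose when 1 library was left out. The Gt(ROSA)26Sor log2 fold change (-0.10) ran from -0.28 to 0.08 when 1 library was left out, turning to 0.08 without knockout replicate 1 and 0.03 without control replicate 1. The share of the summed level held by PDE4 genes was 36.6% against 28.7% with no division by length, 37.1% against 26.5% per coding length and 22.9% against 16.8% with Gm45837 added, above the control in each. The cause of these shifts was not tested, except that stricter filters leave fewer low genes to test.

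The correlation between deviations of same-numbered libraries was 0.03 over genes. With 2 pairs this cannot tell whether same-numbered libraries shared a mouse, a culture or a preparation. A fit with the replicate block left 5 of the 10 genes higher and 3 lower and changed no call among the named genes. Leaving out 1 library leaves a lone library that is assumed to vary like the other group. With 2 libraries a group, 2 residual degrees of freedom limit every test. Genes under about 1 CPM rest on few fragments.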
